A study of Homo sapiens with 6 samples.

Results

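Small interfering RNAs (siRNAs) against kinases of mitochondria and of the creatine system occupied 14 of the 939 library wells of this screen. They were chosen by gene identity, as the library wells whose Entrez locus ID belongs to one of 16 genes fixed as a list, and 14 of those genes had a well, 1 well each. COQ8A and CKMT1A had no well under their own locus ID and were not analysed here. The wells fall into 4 creatine kinase siRNAs (CKB, CKM, CKMT1B and CKMT2), 5 siRNAs against the kinases of the pyruvate and branched-chain dehydrogenase complexes (PDK1, PDK2, PDK3, PDK4 and BCKDK), 4 siRNAs against kinases of the ADCK and COQ8 family (ADCK1, ADCK2, ADCK5 and COQ8B) and 1 siRNA against PINK1. The transcript accession in the table belonged to the same locus for all 14, and 2 wells carried an older symbol, CKMT1 for CKMT1B and ADCK4 for COQ8B. The sequences of the siRNAs were not used here.

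The cells were SUM149PT, 1 established cell line from an inflammatory breast cancer of the triple-negative kind. Every library well of both groups was reverse-transfected with 45 nM siRNA and 750 cells and kept for 48 hours. The untreated group (3 samples) then had no fatty acid, and the EPA group (3 samples) had 50 µM eicosapentaenoic acid (EPA), an omega-3 polyunsaturated fatty acid, for 72 hours. Viability was read as fluorescence of resorufin, which cells make from resazurin, and the design text names the aim as finding a druggable gene whose loss complements EPA. No transcript or protein was measured, so neither the knockdown of any member gene nor the identity of the cells could be checked in these data.

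Creatine kinases pass phosphate between ATP and creatine. CKB (brain type) and CKM (muscle type) work in the cytosol, while ubiquitous CKMT1, made from the near-identical gene copies CKMT1A and CKMT1B, and sarcomeric CKMT2 sit between the mitochondrial membranes and load creatine with phosphate from newly made ATP. The pyruvate dehydrogenase kinases PDK1 to PDK4 switch off the enzyme complex through which pyruvate enters the citric acid cycle, and BCKDK does the same for the complex that oxidizes branched-chain amino acids. The COQ8 proteins are atypical kinases needed to make coenzyme Q, the electron carrier of the respiratory chain, ADCK1, ADCK2 and ADCK5 are their relatives, and PINK1 marks damaged mitochondria for removal. Resazurin is reduced with electrons from metabolism, so a siRNA against such a gene can in principle alter the dye signal without a change in cell number. No second readout of cell number was analysed here, and the 2 cannot be told apart.

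Values are given in 2 ways, as fluorescence units and as a relative value, the log2 of a well's fluorescence over the median of the library wells of its plate and sample. The negative control siRNA OTP3 read 49202 ± 1292 units untreated and 24974 ± 2908 with EPA, the library median 22991 ± 1184 and 13565 ± 1404, and blank wells 3738 ± 40.5 and 3888 ± 28.9 (SD, n = 3 each). OTP3 thus kept 50.8% ± 3.50 (SE) of its signal with EPA and the library median 59.0% ± 3.94, and in both the 3 EPA samples lay below the 3 untreated ones (two-sided exact permutation test, p = 0.1, which is the lowest value 3 samples against 3 can give). Relative values correlated across siRNAs with r from 0.902 to 0.921 among untreated samples, from 0.909 to 0.943 among EPA samples and from 0.685 to 0.756 between the groups; siRNAs are not independent replicates. Whether the samples came from separate cultures is not stated in the labels. The limma p-values therefore describe the spread among these 6 samples, which limma draws toward the spread typical of all library siRNAs. That spread may be only technical.

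The siRNAs against CKB, CKM and CKMT1B gave a signal close to the library median without EPA and a signal well below it with EPA. The fourth creatine kinase siRNA, against CKMT2, did not show this difference. The log2 difference in relative value, EPA minus untreated, was -1.23 for CKB, -1.03 for CKMT1B and -0.86 for CKM, and these 3 passed limma's test. It was -0.07 for CKMT2. The same test called 15.2% of all 939 library siRNAs lower.

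The CKB wells read 22022, 24926 and 27558 units in untreated samples 1 to 3 and 7079, 5718 and 7027 in EPA samples 4 to 6. The groups did not overlap, and every EPA value was far under every untreated one. In fluorescence units most of the 14 siRNAs, and OTP3, also had groups that did not overlap, and the library share is not given here. In relative values the 3 EPA values of CKB also lay below the untreated ones, as for 18.8% of the library. The mean fell from 24835 ± 2769 to 6608 ± 771 (SD, n = 3 each), or to 26.6% ± 2.48 (SE), beside 50.8% for OTP3. The relative value was 0.04 untreated (SE 0.116, limma adjusted p = 0.79) and -1.19 with EPA (limma adjusted p = 6.74e-06). The difference of -1.23 (SE 0.165, limma adjusted p = 0.000685) ranked 28th from the lowest among the 939 siRNAs.

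The well listed as CKMT1, whose locus ID is that of CKMT1B, read 17098, 24475 and 20845 units untreated and 6851, 6147 and 5877 with EPA. The untreated values spread more than those of CKB, but the highest EPA value was still less than the lowest untreated value. The mean fell from 20806 ± 3689 to 6292 ± 503, which left 30.2% ± 3.40. Its relative value went from -0.23 (limma adjusted p = 0.114) to -1.26 (limma adjusted p = 5.86e-06), a difference of -1.03 (SE 0.17, limma adjusted p = 0.00162). Since CKMT1A and CKMT1B are near-identical copies, a siRNA directed at one may act on both, and the value is uncertain as a value of CKMT1B alone. Without untreated sample 2 its untreated value, at -0.35, passed as lower (limma adjusted p = 0.0468).

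CKM wells read 23878, 18553 and 19521 units untreated against 7550, 6507 and 7033 with EPA. Again no EPA value reached the lowest untreated one. The mean fell from 20651 ± 2837 to 7030 ± 522, leaving 34.0% ± 3.07, and the relative value went from -0.23 to -1.10, a difference of -0.86 (SE 0.161, limma adjusted p = 0.00264). CKM is the muscle isoform, and its expression in these cells was not analysed here. Without untreated sample 1 the untreated value of CKM, at -0.34, passed as lower (limma adjusted p = 0.0395).

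CKMT2 wells read 33078, 32056 and 30845 units untreated and 16143, 20377 and 20690 with EPA. They were the brightest creatine kinase wells in all 6 samples. Here too the groups did not overlap in fluorescence units. The mean went from 31993 ± 1118 to 19070 ± 2540, so 59.6% ± 4.74 was left, near the 59.0% of the library median. The relative value was higher than the library without EPA, at 0.41 (limma adjusted p = 0.0135), and with EPA, at 0.34 (limma adjusted p = 0.0304). Neither call held after median polish (0.24 and 0.19), the first was lost without untreated sample 1 (0.38) or untreated sample 2 (0.41, limma adjusted p = 0.0533) and the second without EPA sample 5 (0.25) or 6 (0.23), and without EPA sample 4 it was 0.53. The difference of -0.07 had a 95% interval from -0.46 to 0.32, which excludes a difference of the size seen for CKB, CKM or CKMT1B but not a smaller one. The difference between CKMT2 and the other creatine kinases was not tested.

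All 4 creatine kinase wells lay in the third row of plate 1, in columns 9, 11, 13 and 15, away from the plate edge. The other 16 library wells of that row had a median difference of 0.39, between -0.82 and 0.59, so CKB, CKM and CKMT1B were lower than all 16. The library wells directly around them had median differences of 0.21 (CKB), 0.33 (CKM) and 0.45 (CKMT1B), 8 wells each, and 1 of those around CKM, at -1.40, was below CKM and passed as lower. For CKMT2, 4 of the 16 row wells were lower. The 8 wells around CKMT2 had a median of 0.35, and 1 of them was below it. OTP3 wells in the same row kept 57.3% ± 7.62 of their signal with EPA (2 wells) and the well of cells alone kept 63.0% ± 5.28. After median polish, which takes out row and column effects within a plate, the differences were -1.04, -0.76 and -0.99 and all 3 still passed. With EPA the 3 wells stood at 1.70 (CKB), 1.81 (CKM) and 1.62 (CKMT1B) times the blank level, so the size of the difference depends on the background. After blank subtraction it was -2.12, -1.55 and -1.95, and 12.9%, 18.6% and 14.1% of the signal was left. Relative to OTP3 in place of the library, CKB (-0.84, limma adjusted p = 0.00383) and CKMT1B (-0.64, limma adjusted p = 0.025) still passed, and CKM (-0.48, limma adjusted p = 0.073) did not. That centring moved the median difference of all library siRNAs from 0.20 to 0.63. Against OTP3 all 4 creatine kinase siRNAs were already lower without EPA, from -0.67 (CKMT2) to -1.31 (CKM and CKMT1B). So were 91.8% of all library siRNAs, with a median of -1.13.

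Among the dehydrogenase kinases PDK1 stood apart from PDK2, PDK3 and PDK4. Its siRNA gave a signal above the library median in all untreated samples and below it in all EPA samples. The siRNAs against PDK2, PDK3 and PDK4 gave a low signal in both groups, with differences between 0.02 and 0.05. BCKDK, in an edge well, gave a high signal in both groups.

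PDK1 wells read 33694, 26244 and 30467 units untreated and 11838, 9676 and 10428 with EPA. The groups did not overlap, as for most of the 14 siRNAs in fluorescence units. The mean fell from 30135 ± 3736 to 10647 ± 1098 (SD, n = 3 each), which left 35.3% ± 3.29. The relative values were 0.33, 0.19 and 0.35 untreated and -0.61, -0.53 and -0.28 with EPA. Their means, 0.29 (limma adjusted p = 0.0393) and -0.47 (limma adjusted p = 0.00288), passed as higher and lower, and the difference was -0.76 (SE 0.157, limma adjusted p = 0.00419). The untreated call was lost when any 1 of the untreated samples was left out, at 0.27, 0.34 and 0.26 without sample 1, 2 and 3, and the EPA call was lost after median polish (-0.21).

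PDK1 to PDK4 lay in the tenth row of plate 2, in the alternate columns 7, 9, 11 and 13. The other 16 library wells of that row had a median difference of 0.48, and 1 of them was lower than PDK1. The 8 library wells around PDK1 had a median of 0.26, and 3 of them passed as lower. After median polish the PDK1 difference was -0.88 (limma adjusted p = 0.000508). Relative to OTP3 it was -0.24 and did not pass (limma adjusted p = 0.296). The 2 wells of cells alone in that row kept 37.6% ± 2.62 of their signal, close to the 35.3% of PDK1, while no OTP3 well lay there.

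PDK3 gave the lowest signal of the 4 in both groups. Its wells read 14147, 11464 and 11141 units untreated and 9156, 7674 and 5904 with EPA. The relative values, -1.01 untreated (limma adjusted p = 1.62e-05) and -0.98 with EPA (limma adjusted p = 1.34e-05), differed by 0.03 (95% interval -0.31 to 0.36, limma adjusted p = 0.894). In fluorescence units all 3 EPA values were below the untreated ones, as in OTP3, and 61.9% ± 9.06 was left. Median polish kept both calls but at -0.37 and -0.47.

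PDK2 wells read 13894, 16522 and 16325 units untreated and 9975, 10873 and 7872 with EPA, and 61.4% ± 6.61 of the signal was left. PDK2 passed as lower in each group, at -0.66 untreated (limma adjusted p = 0.00154) and -0.64 with EPA (limma adjusted p = 0.0016), and the difference was 0.02 (95% interval -0.40 to 0.45). PDK2 thus lay below the library in both groups, and the interval leaves room for a difference in either direction. PDK4 wells read 20563, 13192 and 15321 units untreated and 14359, 9464 and 7430 with EPA. PDK4 is the only 1 of the 4 PDK siRNAs whose groups overlapped in fluorescence units, since EPA sample 4 exceeded untreated sample 2. Its relative values of -0.61 and -0.56 (limma adjusted p = 0.00169 and 0.00252) turned to 0.20 and 0.36 after median polish, so the direction of PDK4 against the library depends on the position correction. Relative to OTP3 the EPA minus untreated differences of PDK2, PDK3 and PDK4 were 0.54, 0.55 and 0.57 and passed as higher (limma adjusted p between 0.0383 and 0.0488), below the 0.63 of the median siRNA under that centring.

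BCKDK gave the brightest wells of the 14. They read 34995, 50447 and 57104 units untreated and 46616, 42944 and 50753 with EPA. The groups overlapped, and 98.4% ± 14.4 of the signal was left. Relative to the library BCKDK was higher without EPA, at 0.95 (limma adjusted p = 0.0001), and with EPA, at 1.64 (limma adjusted p = 1.55e-06). The difference of 0.69 (SE 0.182) passed as higher (limma adjusted p = 0.0128), with all 3 EPA relative values above the untreated ones.

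The BCKDK well sat in the first row of plate 1, where cells alone kept 92.2% ± 5.12 (1 well) and OTP3 86.8% ± 3.59 (2 wells) of their signal with EPA. The other 19 library wells of that row had a median relative value of 0.70 untreated and 1.28 with EPA, and a median difference of 0.46. After median polish BCKDK stood at 0.55 untreated and 0.76 with EPA, both still higher, and the difference of 0.21 no longer passed (limma adjusted p = 0.459). Leaving out EPA sample 6 also ended the call of the difference (0.59, limma adjusted p = 0.0532). Relative to OTP3 BCKDK was at -0.13 untreated (limma adjusted p = 0.345) and 0.94 with EPA.

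In the ADCK and COQ8 family 0 of 4 siRNAs passed limma's test of EPA minus untreated, and 1 of 4, ADCK5, had an unadjusted p under 0.05. Of all library siRNAs 15.2% passed as lower and 29.0% as higher. ADCK5 gave the lowest signal of all 14 siRNAs in both groups. ADCK2 was below the library in both groups, COQ8B with EPA, and ADCK1 in neither.

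ADCK5 wells read 5760, 6217 and 5311 units untreated and 4553, 4335 and 4585 with EPA. The blank wells at 3738 and 3888 were not far below. The mean of 5763 ± 453 untreated was 1.52 times the blank level and that of 4491 ± 136 with EPA was 1.15 times, and the untreated well stood at 11.6% ± 1.16 (SD, n = 3) of OTP3. The relative value was -2.07 untreated (limma adjusted p = 4.81e-08) and -1.74 with EPA (limma adjusted p = 1.18e-07), the tenth lowest of 939 in each group.

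So close to the blank level little further loss can be read for ADCK5. Its difference was 0.33 (limma adjusted p = 0.0573) in the plain fit and -0.80 after blank subtraction (limma adjusted p = 0.122), so its direction depends on the background and it passed in neither. It passed as higher without EPA sample 4 (0.39, limma adjusted p = 0.0371), without edge wells (0.36) and relative to OTP3 (0.72, limma adjusted p = 0.00615). Median polish left ADCK5 lower in each group but at -1.15 and -0.80. The 8 library wells around it had median relative values of -1.08 untreated and -1.06 with EPA.

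COQ8B, the coenzyme Q synthesis kinase listed as ADCK4, read 20958, 21402 and 23958 units untreated and 9274, 12759 and 11103 with EPA. The groups were apart in fluorescence units, with 50.0% ± 5.02 left, close to OTP3. Its relative value of -0.13 untreated did not pass and that of -0.45 with EPA did (limma adjusted p = 0.0122), but not without EPA sample 4 (-0.26, limma adjusted p = 0.09), without edge wells (-0.28, limma adjusted p = 0.0823) or after quantile normalization (-0.27, limma adjusted p = 0.0936). After median polish COQ8B was higher than its plate in both groups, at 0.57 and 0.34, so its direction against the library depends on the position correction. The difference was -0.33 (SE 0.195, 95% interval -0.76 to 0.11).

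ADCK2 wells read 22456, 14218 and 15175 units untreated and 8531, 6813 and 8762 with EPA. Untreated sample 1 was the high one of its group, and the relative value there was -0.10 beside -0.77 and -0.66. The mean relative values of -0.51 untreated (limma adjusted p = 0.00976) and -0.91 with EPA (limma adjusted p = 0.000227) passed as lower, and the difference of -0.40 did not pass (95% interval -0.86 to 0.06). After median polish they stood at 0.04 and -0.18 and neither passed. Without untreated sample 2 or 3 the untreated call was lost (-0.38 and -0.44).

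ADCK1 wells read 17462, 23258 and 16627 units untreated and 9312, 15361 and 13626 with EPA. The EPA samples spread widely, from a relative value of -0.84 in sample 4 to 0.11 in sample 5. The mean relative values, -0.35 (limma adjusted p = 0.0991) and -0.26 (limma adjusted p = 0.196), did not pass, nor did the difference of 0.09 (95% interval -0.47 to 0.64). Without EPA sample 4 the untreated value of -0.35 passed (limma adjusted p = 0.0255), and after median polish the EPA value was higher, at 0.31. The 4 wells of this family shared the seventh row of plate 1, where the other 16 library wells had median relative values of -0.46 untreated and -0.44 with EPA and a median difference of 0.02.

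The siRNA against PINK1, the kinase that marks damaged mitochondria, gave a mean fluorescence of 28973 ± 3029 without EPA beside 29251 ± 4397 with it (SD, n = 3 each). Its wells read 30128, 25537 and 31255 units untreated and 33702, 24910 and 29141 with EPA. The groups overlapped, and 101% ± 10.7 (SE) of the fluorescence remained, beside 50.8% for OTP3. The relative value was 0.24 untreated (limma adjusted p = 0.0628, and 0.0463 without EPA sample 6) and 0.98 with EPA (limma adjusted p = 1.07e-05). The difference of 0.74 (SE 0.145, limma adjusted p = 0.00327) passed as higher.

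The PINK1 well sat in the last row of plate 2, an edge row, where 2 wells of cells alone kept 79.4% ± 2.16 of their signal with EPA. The other 19 library wells of that row had a median difference of 0.41, and 16 of them lay below PINK1. The 5 library wells directly around it had a median of 0.03, and all 5 lay below PINK1. Relative to OTP3 the PINK1 difference was 1.26 (limma adjusted p = 2.97e-05), beside a library median of 0.63. After median polish PINK1 was still higher with EPA, at 0.47 (limma adjusted p = 0.00228), and the difference of 0.37 did not pass (limma adjusted p = 0.0995).

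Counted together, the test of EPA minus untreated called 4 of the 14 siRNAs lower (CKB, CKM, CKMT1B and PDK1) and 2 higher (BCKDK and PINK1). Of all 939 library siRNAs it called 15.2% lower and 29.0% higher. The median difference was -0.02 over the 14 and 0.20 over the 939. For 4 of the 14 all 3 EPA relative values lay below the untreated ones, and for 3 all lay above (BCKDK, ADCK5 and PINK1), beside 18.8% and 36.0% of the library. After median polish the same 4 were lower and 0 of 14 were higher by limma (1, PINK1, at an unadjusted p under 0.05), beside 14.8% and 16.3% of the library. Relative to OTP3 2 were lower and 6 higher (14.3% and 42.9%), beside 6.28% and 58.1% of the library. At an adjusted p under 0.01 the 4 lower calls and that of PINK1 held, beside 10.3% lower and 14.4% higher of the library. Without EPA sample 6 the higher calls numbered 1, beside 23% of the library. Without EPA sample 4 they numbered 3, with ADCK5, beside 29.5% of the library.

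Without EPA 5 of the 14 were lower than the library median (PDK2, PDK3, PDK4, ADCK2 and ADCK5) and 3 higher (CKMT2, PDK1 and BCKDK), or 35.7% and 21.4%, beside 35.6% lower and 33.9% higher of the whole library. Median polish gave 3 lower calls and 3 higher, beside 27.6% and 26.5% of the library. Relative to OTP3 13 were lower and 0 higher, with BCKDK the only one of the 14 that did not pass, and of the library 91.8% were lower and 0.532% higher. Without untreated sample 1 or untreated sample 2 the higher calls numbered 1, beside 30.4% and 29.8% of the library. With EPA 10 of the 14 were lower, all but CKMT2, BCKDK, PINK1 and ADCK1, and 3 were higher (CKMT2, BCKDK and PINK1), where the library had 37.0% lower and 36.4% higher. After median polish the EPA counts were 6 lower and 5 higher (42.9% and 35.7%), beside 30.4% and 30.6% of the library. The 6 were CKB, CKM, CKMT1B, PDK2, PDK3 and ADCK5.

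As kinases of neighbouring steps of energy metabolism, adenylate kinases, pyruvate kinases, phosphofructokinases and AMPK subunits with STK11 were counted from a fixed list of 19 genes, of which 16 had a well. EPA minus untreated called 3 of these 16 lower and 3 higher (18.8% each), with a median of -0.19. After median polish it called 4 lower and 3 higher (25% and 18.8%). The library had 15.2% lower and 29.0% higher, and 14.8% and 16.3% after median polish. With EPA 11 of the 16 were lower than the library median and 2 higher, beside 37.0% and 36.4% of the library. Their share of lower calls (68.8%) was near the 71.4% of the 14 siRNAs above. Median polish gave 7 lower and 2 higher, beside 30.4% and 30.6% of the library. The lower call with the largest statistic was PFKL, a phosphofructokinase of glycolysis, whose wells kept 16.7% ± 1.06 of their signal (difference -1.85, and -1.68 after median polish). PRKAA1, a catalytic subunit of AMPK, kept 31.3% ± 3.98 and was at -0.95, but at -0.39 and not past the test after median polish (limma adjusted p = 0.0714). PKM, a pyruvate kinase listed as PKM2, was higher at 0.60 and did not pass after median polish (0.19, limma adjusted p = 0.358). The AMPK subunit PRKAG3 was higher at 0.66 and at 0.96 after median polish. Its signal was low in both groups, with 7729, 8543 and 8804 units untreated and 8610, 7753 and 7408 with EPA. Blank wells read 3738 and 3888, and that level limits how much loss can be read for PRKAG3. CKB, at 26.6%, kept more of its signal than PFKL did, and that difference was not tested. With EPA PFKL read 5689, 4938 and 4605 units, near the blank level, so both percentages depend on the background.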

How the data were processed

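The table deposited by the authors holds raw fluorescence intensity of single wells, per the file headers. Steps between the plate reader and these values are not given in sources used for this work. It holds 1152 wells on 3 plates of 16 rows and 24 columns, and its columns name a group but no numbered sample of the labels, so untreated columns are called samples 1 to 3 and EPA columns samples 4 to 6. All 939 library wells entered 1 fit with limma 3.58.1 (R 4.3.3; trend and robust options, no pseudocount, no filter on low values) on log2 intensity over the plate's library median. It tested each group mean against 0 and EPA minus untreated, two-sided, with Benjamini-Hochberg adjustment over 939 wells at 0.05. The fit was tested on simulated data with independent noise for each well. Those data held no effects of plate position or of a shared sample, so the test cannot speak to these. Symbols follow RefSeq for GRCh38.p14. Row means plate rows counted from the top by well number; rows 1 and 16 and columns 1 and 24 are edge.

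Every well of the listed genes is named; of the 16 neighbouring kinases with a well, the 2 with the largest statistic in each direction are. The members and lists were chosen with earlier results of these data known. Alternatives were OTP3 centring, blank subtraction (floor of 3 SDs of blank wells), median polish, both together, no edge wells, quantile normalization, a plain variance model, a threshold of 0.01, a filter on wells whose mean is under 2 times the median of TOX, the positive control siRNA, the difference centred on its plate median, and each sample left out.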

Additional observations from a re-analysis of the deposited data

Results flagged for a closer look

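The PDK1 siRNA lay above the library median in all 3 untreated samples and below it in all 3 EPA samples, and the difference of -0.76 passed the test (limma adjusted p = 0.00419). It was the only one of the 14 siRNAs to do so. Relative to OTP3 PDK1 was lower in both groups, at -0.81 untreated and -1.05 with EPA. Under that centring the difference of -0.24 did not pass (limma adjusted p = 0.296). Cells alone in its plate row kept 37.6% ± 2.62 of their signal and PDK1 35.3% ± 3.29 (SE); the part of plate position in the result was not tested beyond median polish, after which the difference was -0.88.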

How the results depend on the processing

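Of 635 recomputed values of the 14 siRNAs over the 3 comparisons, 566 kept their side of the threshold, 35 lost and 16 gained a call, and 18 that had a call in either fit changed sign; 31 further sign changes were of values past the threshold in neither fit. CKB and CKMT1B were called lower with EPA than without in all 16 alternatives (-2.12 to -0.84 and -1.95 to -0.64), and CKM and PDK1 in 15, all but OTP3 centring. PINK1 was called higher in 13 of 15 and BCKDK in 10 of 15.

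OTP3 centring gave 13 lower and 0 higher of the 14 untreated and 2 lower and 6 higher for EPA minus untreated; it turned the untreated values of CKB (-1.04), CKMT2 (-0.67), PDK1 (-0.81), BCKDK (-0.13) and PINK1 (-0.86) and the EPA value of CKMT2 (-0.36). Median polish gave 3 lower untreated, 6 lower and 5 higher with EPA and 0 higher for the difference. With blank subtraction too these were 2, 6, 5 and 0, beside 23.3%, 31%, 30.2% and 13.7% of the library. The cause was not tested. Without and with blank subtraction median polish turned PDK4 (0.20 and 0.24), ADCK2 (0.04 and 0.06) and COQ8B (0.57 and 0.72) untreated. With EPA it turned PDK4 (0.36 and 0.48), ADCK1 (0.31 and 0.56) and COQ8B (0.34 and 0.62). Without edge wells, which removes BCKDK and PINK1 themselves, 1 of 12 was higher with EPA and 1 (ADCK5) for the difference. Of the 780 library wells left 35.1% and 25.1% were. Quantile normalization and the 0.01 threshold left 1 higher for the difference, beside 16.8% and 14.4% of the library. The 0.01 threshold also left 1 higher untreated, beside 28% of the library. Leaving out 1 sample gave 1 to 4 higher untreated and 1 to 3 higher for the difference. The library shares in those fits were 29.8% to 34.9% and 22.3% to 29.5%.

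Over the library, OTP3 centring gave 862 lower and 5 higher untreated (334 and 318 with library centring), 607 and 127 with EPA (347 and 342) and 59 and 546 for the difference (143 and 272); blank subtraction with polish gave 219 lower untreated. Higher differences numbered 153 after polish, 129 with blank subtraction too, 131 centred on the plate median, 158 after quantile normalization and 135 at 0.01. The 16 neighbouring kinases (3 lower, 3 higher) had 5 lower and 1 higher after blank subtraction, beside 16.5% and 25.8% of the library. Centred on the plate median they had 5 and 0, beside 20.7% and 14%. By OTP3 6 were higher and at 0.01 1 was, beside 58.1% and 14.4% of the library.

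No paired analysis was possible because the table's columns carry no replicate number of the labels. Wells near the blank level limit what can be read for ADCK5, and with EPA for CKB, CKM, CKMT1B and PFKL. A low signal in both groups limits it for PRKAG3.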
